A study of Mus musculus with 7 samples.

Results

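The genes described here encode the SR proteins and the heterogeneous nuclear ribonucleoproteins (hnRNPs) of the mouse. They were chosen by symbol from the deposited gene table, as protein-coding genes named Srsf with a number, Tra2a, Tra2b, Hnrnp or Hnrp. The rule found 33 of 22572 protein-coding genes among 38924 gene records, 13 of them SR protein genes (Srsf1 to Srsf7, Srsf9 to Srsf12, Tra2a and Tra2b) and 20 hnRNP genes. Polyadenylated RNA of dissected hippocampus from adult mice had been sequenced as 7 libraries. The Ammon's horn, which holds the CA fields, gave 3 libraries from wild-type mice and 3 from Khdrbs3 (Tstar) knockout mice, and the dentate gyrus gave 1 library from wild-type mice. All 3 groups carry the same strain label, a Tstar null allele crossed back to C57Bl6 for 8 generations, and the labels name no promoter or cell type to which the loss would be limited. Whether the libraries of a group come from different animals is not in the labels, and the spread behind each p-value is that among libraries only. In what follows, wild-type and knockout libraries mean those of the Ammon's horn unless the dentate gyrus is named. There is no replicate of the dentate gyrus library, and each test took its spread from the Ammon's horn.

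SR proteins bind short sequences in exons and, through their arginine- and serine-rich domains, help the spliceosome to recognise the exon. HnRNPs coat nascent transcripts, and many of them keep exons from being included. Genes of both families control their own amounts by splicing: the protein promotes inclusion of a poison exon, which carries a premature stop codon, or splicing in its own 3′ untranslated region, and the resulting transcript is destroyed by nonsense-mediated decay. Other transcripts of these genes keep introns and stay in the nucleus. KHDRBS3, also called T-STAR or SLM2, is an RNA-binding splicing regulator of neurons that belongs to neither family.

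The exons whose coverage is described further on are shown first, because the stop codon in them is what sets their transcripts apart from the coding ones. Each line gives the exon from its first base to the premature stop codon, which is in capitals, as read from the GENCODE release M21 transcript annotated as a target of nonsense-mediated decay (mm10).
Srsf3, chr17:29039454-29039487, plus strand: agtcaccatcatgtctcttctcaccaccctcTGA
Tra2b, chr16:22259181-22259261, minus strand: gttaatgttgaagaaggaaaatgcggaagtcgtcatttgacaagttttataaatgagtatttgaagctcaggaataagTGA
Srsf6, chr2:162932815-162932966, plus strand: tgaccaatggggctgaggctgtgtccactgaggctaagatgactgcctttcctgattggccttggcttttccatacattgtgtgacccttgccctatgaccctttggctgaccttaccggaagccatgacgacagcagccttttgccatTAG
Srsf4, chr4:131884276-131884390, plus strand: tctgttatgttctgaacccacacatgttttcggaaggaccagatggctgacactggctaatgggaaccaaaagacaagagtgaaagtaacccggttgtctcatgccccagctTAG
Srsf9, chr5:115328347-115328428, plus strand: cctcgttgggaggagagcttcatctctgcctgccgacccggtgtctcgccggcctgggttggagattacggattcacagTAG
Hnrnpl, chr7:28817335-28817393, plus strand: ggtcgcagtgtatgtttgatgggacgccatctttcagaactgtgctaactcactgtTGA
Hnrnpll, chr17:80044976-80045022, minus strand: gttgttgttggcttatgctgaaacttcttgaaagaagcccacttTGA
In Srsf3, Tra2b, Srsf4, Srsf9, Hnrnpl and Hnrnpll the whole exon lies inside an intron of a protein-coding transcript and holds none of its coding sequence. The Srsf6 exon is shared in part with a transcript annotated as protein coding. Its bin 6, whose coverage is given below, lies after the stop codon and holds none of the stretch shown. Srsf2, Hnrnpdl and Hnrnpa2b1 also have exons of decay transcripts that lie in an intron of a coding transcript, but the annotated stop codons of those transcripts lie in other exons, so none is shown. Those of Hnrnpdl and Hnrnpa2b1 lie in the untranslated region.

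The libraries held between 50230733 and 67692326 counts in the gene table and between 29698245 and 39904606 reads in the exon bins, which are the pieces of a gene's exons between all annotated exon ends, as DEXSeq counts them. The second exon bin of Khdrbs3 checks the knockout labels: reads there numbered 808, 1103 and 964 in the 3 wild-type libraries, 6, 9 and 7 in the 3 knockout libraries and 506 in the dentate gyrus library. Markers of dentate granule cells (5 of 5 in the table, none at 0) summed to 519.9 CPM in the dentate gyrus library and to between 41.4 and 65.5 CPM in the Ammon's horn libraries, and those of CA1 pyramidal cells (4 of 4) to 62.9 against between 454 and 523 CPM. Markers of CA3 pyramidal cells (4 of 4) summed to 269 CPM in the dentate gyrus library and to between 215 and 248 CPM in the others. Oligodendrocyte markers (5 of 5) summed to 1158 CPM in the dentate gyrus library against between 2892 and 3095 CPM in the knockout and between 3440 and 3554 CPM in wild-type Ammon's horn, and general neuronal markers (3 of 3) to 2892 against between 3779 and 4290 CPM. The neuronal sum is set by Snap25 and Syt1; the third gene, Rbfox3, was higher in the dentate gyrus library (167 CPM) than in the Ammon's horn (between 134 and 153 CPM). Choroid plexus markers (12 of 12, none at 0) ran from 27.2 to 817 CPM and were highest in knockout replicates 1 and 3. Astrocyte markers (3 of 3) summed to 3129 CPM in the dentate gyrus and to between 2415 and 2994 CPM in the others. Microglia markers (4 of 4) summed to between 165 and 174 CPM in the knockout, between 191 and 201 CPM in wild-type Ammon's horn and 170 CPM in the dentate gyrus library. The knockout libraries thus lay below the wild-type libraries in both the oligodendrocyte and the microglia sums. In bulk tissue fewer cells of a type and less RNA per cell cannot be told apart.

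The 6 highest levels were those of hnRNP genes. Levels are exon-bin reads as CPM (counts scaled to a common library size), scaled between libraries by TMM and divided by the exon length in kb, which allows comparison between genes. Hnrnpa2b1, whose protein binds RNA in nucleus and cytoplasm and takes part in mRNA transport, was highest with 161, 156 and 143 CPM per kb in the wild-type libraries, 157, 151 and 152 in the knockout libraries and 157 in the dentate gyrus library. Hnrnpk, a KH-domain protein that binds cytosine-rich RNA, followed with 138, 135 and 134 CPM per kb in the wild-type libraries, 139, 132 and 139 in the knockout libraries and 135 in the dentate gyrus library. Hnrnpa1, the classical silencer of exons, stood at 110.4, 114 and 108 CPM per kb in the wild-type libraries, 106, 101 and 112 in the knockout libraries and 96.6 in the dentate gyrus library. These 3 genes and Hnrnpc and Hnrnpa3 after them were each separated from the next gene in the order, with no overlap between their 3 wild-type Ammon's horn libraries, whereas Hnrnpul2 overlapped with Srsf5 below it.

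Among the SR protein genes Srsf5 was highest with 40.1, 50.5 and 39.6 CPM per kb in the wild-type libraries, 41.9, 51.1 and 50.8 in the knockout libraries and 43 in the dentate gyrus library. Srsf7, which also takes part in mRNA export, had 30.8, 29.6 and 24.9 CPM per kb in the wild-type libraries, 28.5, 30 and 28 in the knockout libraries and 35.2 in the dentate gyrus library. Srsf3, the smallest SR protein and a regulator of its own poison exon, had 26.9, 23.6 and 22.6 CPM per kb in the wild-type libraries, 24.5, 24.7 and 23.5 in the knockout libraries and 27.3 in the dentate gyrus library. Srsf4 and Srsf12 were at the lower end, with means of 5.33 ± 0.404 and 5.37 ± 0.216 CPM per kb (SD, n = 3) in wild-type Ammon's horn. For Srsf4 this level is too low by an unknown amount, since the bins of its last 2 exons held 0 reads in all libraries. Another gene record, Gm12992, overlaps Srsf4. From the highest to the lowest of the 33 genes the mean level spanned 28.8-fold, and 22 of the 32 neighbouring pairs in the order overlapped between their libraries. The order depends on the table: of the 10 highest genes by exon bins, 6 were among the 10 highest by gene-table counts per kb of exon. The exon-bin levels of Hnrnpm, Hnrnpu and Hnrnpa3 include reads of another gene record whose bins are joined with theirs, divided by the member's own exon length. Hnrnpm, joined with March2, ranked 10 by exon bins and 27 by gene-table counts per kb. Hnrnpf, which another gene record overlaps on the opposite strand, ranked 29 by exon bins and 9 by gene-table counts per kb. For every exon-bin read of Hnrnpf the gene table held 5.03 ± 0.384 counts (SD, n = 3) in the wild-type libraries. The cause was not tested, and its low place in the order by exon bins is uncertain.

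**Figure D1:**
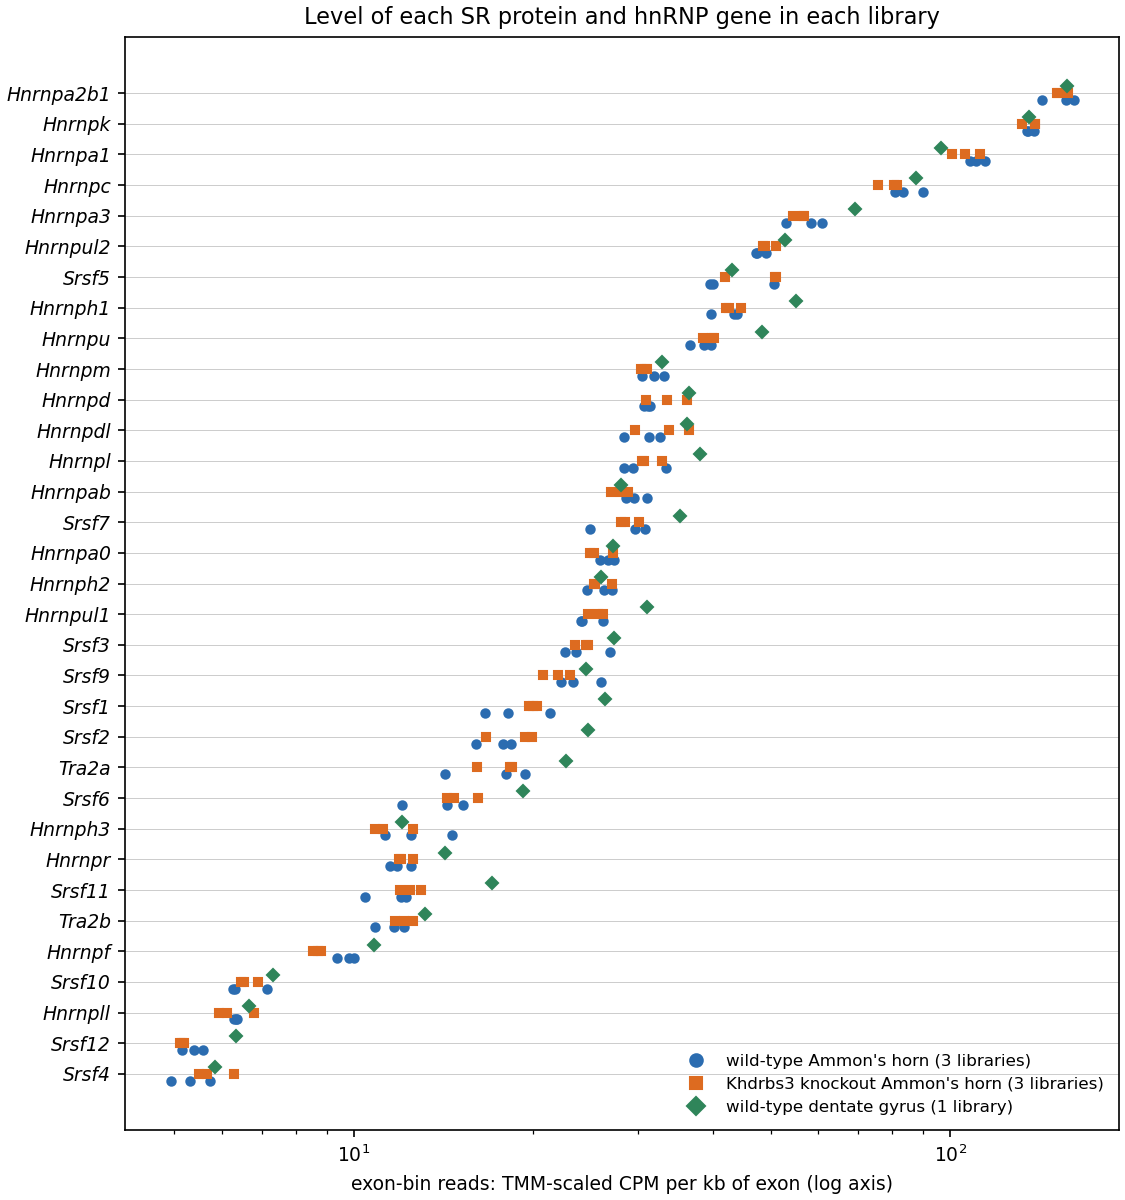
Level of each of the 33 genes in each library, as TMM-scaled CPM of exon-bin reads per kb of exon on a log axis. Each point is 1 library, and genes are ordered by the mean of the 3 wild-type Ammon's horn libraries, from Hnrnpa2b1 at 153 down to Srsf4 at 5.33 CPM per kb. Levels of Hnrnpm, Hnrnpu and Hnrnpa3 include reads of another gene record joined with them. Hnrnpf ranked 29 here and 9 by gene-table counts per kb.

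The first comparison, of knockout with wild-type Ammon's horn, asks whether the loss of KHDRBS3 changed the amount of other splicing factors. None of the 33 genes passed the test in edgeR, where 0.0745% of 22830 genes tested did. Nor did any reach an unadjusted p under 0.05, against 8.38% of all genes. DESeq2 and limma-voom also called 0 of 33. The fold changes were small, 23 of them positive and 10 negative. On the log2 scale they ran from -0.10 to 0.19 with a median of 0.025, beside 0.0015 over all genes, and their standard errors from 0.046 to 0.091. A p that misses the threshold does not show that the levels were equal.

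Srsf5, the gene of SRp40, stood furthest up. Its gene-table level was 73.9, 88.5 and 73.3 CPM in the wild-type libraries, 77.8, 94.8 and 95.5 CPM in the knockout libraries and 84.9 CPM in the dentate gyrus library, with log2 fold change 0.19 ± 0.091 SE, edgeR adjusted p = 0.619. Libraries of both groups overlapped, since wild-type replicate 2 lay above knockout replicate 1. Hnrnpd, also called AUF1, which binds AU-rich elements and marks mRNAs for decay, stood at 77.2, 79.6 and 78.2 CPM in the wild-type libraries, 83.1, 81.3 and 87.3 CPM in the knockout libraries and 96.2 CPM in the dentate gyrus library. It had the smallest p of the members (log2 fold change 0.10 ± 0.048 SE, edgeR adjusted p = 0.612) and was the only one whose 3 knockout libraries all lay above the 3 wild-type libraries, an arrangement found in 6.81% of all genes tested. Hnrnpa1, Hnrnpab, Hnrnpc and Srsf12 had all 3 knockout libraries below the wild-type ones, which 6.44% of all genes did. Their log2 fold changes were -0.071, -0.061, -0.086 and -0.10. The other 28 genes overlapped between the groups.

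**Figure D2:**
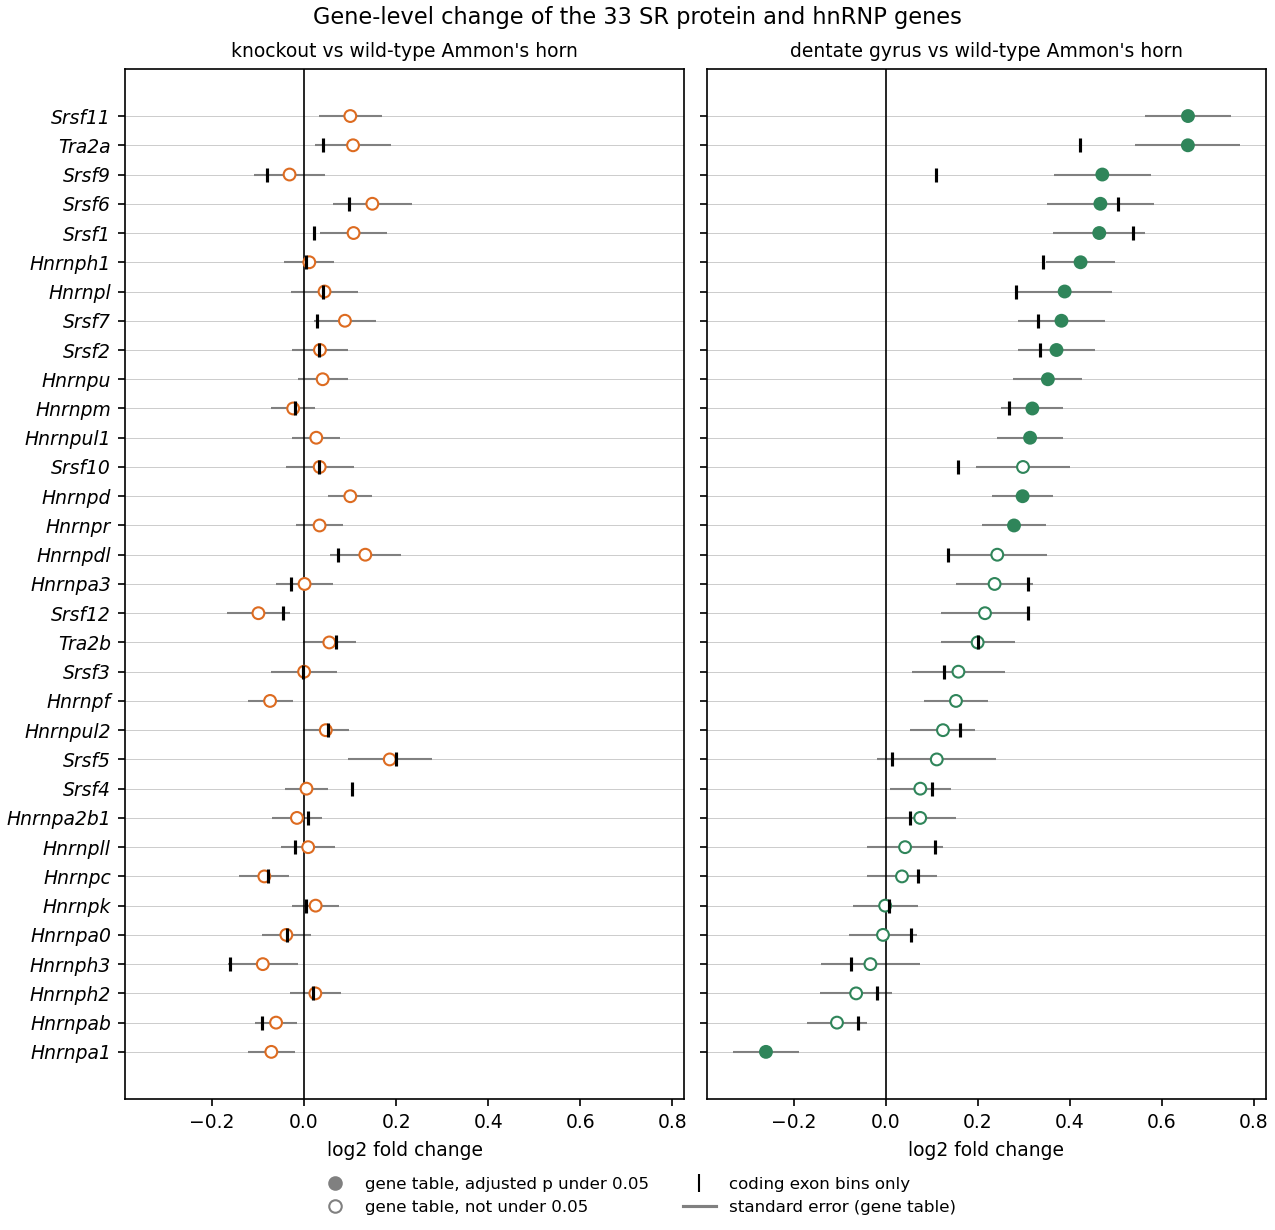
Log2 fold change of each of the 33 genes against wild-type Ammon's horn, in the knockout (left) and the dentate gyrus (right), with its standard error as a grey line. Filled points passed an adjusted p of 0.05, open points did not, and black ticks give the change in coding exon bins only for the 26 genes where these could be placed. No point is filled on the left, and 15 are on the right, 14 of them above 0.

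Splicing of the members did not pass the test in the knockout either. Of their 757 exon bins 596 had enough reads, and diffSpliceDGE in edgeR, a test of a bin's change relative to that of the whole gene, called 0 of them, where 0.00301% of 166154 bins were called. An unadjusted p under 0.05 was found for 14 member bins, or 2.35%, against 1.72% of all bins, and limma called 0 as well. The smallest p belonged to bin 8 of Hnrnpu, the gene of a scaffold protein that binds chromatin and RNA. The bins of Hnrnpu are counted jointly with those of another gene record, and those named here may belong to either. Bin 8 held 0.0862, 0.0676 and 0.0635% of the joined exon-bin reads in the wild-type libraries, 0.111, 0.142 and 0.181% in the knockout libraries and 0.189% in the dentate gyrus library (log2 usage change 0.99 ± 0.35 SE, unadjusted p = 0.0056 in edgeR). These shares rest on at most 31 reads a library. Bin 2 of Hnrnpu came next with 0.0431, 0.0947 and 0.0952% in the wild-type libraries, 0.118, 0.156 and 0.172% in the knockout libraries and 0.14% in the dentate gyrus library (log2 usage change 0.90 ± 0.34 SE, unadjusted p = 0.00918 in edgeR), from at most 23 reads a library. All 3 knockout libraries lay above the wild-type ones in both bins, and neither bin could be placed on the genome.

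Next was a 136-base cassette in the 3′ untranslated region of Hnrnpa2b1, bin 3 at chr6:51461920-51462055 on the minus strand. It is held by 1 of the protein-coding transcripts and, in release M21, by transcripts annotated for nonsense-mediated decay, and splicing in this region is a known means by which hnRNP A2/B1 lowers its own mRNA. Its share was 0.637, 0.567 and 0.503% of the gene's exon-bin reads in the wild-type libraries, 0.711, 0.725 and 0.839% in the knockout libraries and 0.843% in the dentate gyrus library (log2 usage change 0.41 ± 0.16 SE, unadjusted p = 0.00988 in edgeR). The 3 knockout libraries lay above the 3 wild-type ones and the dentate gyrus library above all 6. The last of the 5 smallest p-values were in Hnrnpdl, a relative of Hnrnpd that controls itself in its 3′ untranslated region. Its bin 8 in that region had 0.677, 0.77 and 0.801% in the wild-type libraries, 1.27, 0.753 and 1.39% in the knockout libraries and 1.79% in the dentate gyrus library (log2 usage change 0.56 ± 0.22 SE, unadjusted p = 0.0136 in edgeR), and its bin 22 of 26 bases, coding in some transcripts, had 2.54, 2.2 and 2.37% in the wild-type libraries, 1.93, 1.79 and 1.76% in the knockout libraries and 1.86% in the dentate gyrus library (log2 usage change -0.38 ± 0.16 SE, unadjusted p = 0.0211 in edgeR), with all 3 knockout libraries below the wild-type ones. The high knockout values of bin 8 were in replicates 1 and 3, the libraries with most choroid plexus marker RNA, whose part in this was not tested.

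The exons of decay transcripts differed widely in how many reads they carried next to the coding exons of the same genes. Coverage is given as reads per base relative to the median of the bins that are coding in every protein-coding transcript of the gene. Bins were placed by their number and order within each gene, and single positions were not checked. A read counts in each bin it touches, so that the value is raised for short bins. Over the 7 bins held only by transcripts annotated for nonsense-mediated decay the mean in wild-type Ammon's horn ran from 0.679% to 60.9%, with a median of 13.1%, and over the exons shared with other transcripts it reached 74.4% in Srsf9. In Srsf6 bin 6, the end of its poison exon (103 bases), coverage was 44.4, 40.8 and 42.8% in the wild-type libraries, 31.9, 67.1 and 50.4% in the knockout libraries and 74.1% in the dentate gyrus library. The dentate gyrus library was highest and knockout replicate 1 lowest, and the usage test did not call the bin in either comparison. Only 2 coding bins serve as its reference; against all 8 bins with coding sequence coverage was 29.5, 30.4 and 30.3% in the wild-type libraries, 21.7, 38.6 and 27.8% in the knockout libraries and 40.8% in the dentate gyrus library, which again was highest.

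Srsf4, the gene of SRp75, has several exons of decay transcripts within the same intron. Bin 4, the larger piece of the exon shown above, had 10.4, 14.8 and 14.1% in the wild-type libraries, 14.6, 13.2 and 14.3% in the knockout libraries and 17.5% in the dentate gyrus library. Bin 3, the first 19 bases of that exon, had 57.9, 62.1 and 62.7% in the wild-type libraries, 75.3, 65.2 and 51.5% in the knockout libraries and 30.8% in the dentate gyrus library, from between 5 and 12 reads. The dentate gyrus library was the highest in bin 4 and the lowest in bin 3. In Hnrnpll, a paralogue of Hnrnpl known from lymphocytes, the poison exon (bin 13, 83 bases) had 22.1, 17.4 and 16.3% in the wild-type libraries, 10.1, 22.6 and 18.4% in the knockout libraries and 17.4% in the dentate gyrus library. None of these bins separated the knockout from the wild-type libraries. The remaining bins of this kind, Hnrnpdl bins 20 and 24 and Hnrnph3 bin 21, were covered at means of 0.836%, 2.81% and 0.679% in wild-type Ammon's horn.

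The poison exons of Srsf3, Tra2b, Srsf9 and Hnrnpl also belong to noncoding transcripts and were taken from the newer annotation. In Srsf3 the first 64 bases of the exon (bin 6), which hold the stop codon, had 23.1, 27.3 and 22.4% in the wild-type libraries, 26.7, 21.9 and 24.2% in the knockout libraries and 38% in the dentate gyrus library, and the remaining 392 bases (bin 7) had 0.697, 1.35 and 0.448% in the wild-type libraries, 1.36, 1.12 and 1.27% in the knockout libraries and 1.91% in the dentate gyrus library. The dentate gyrus library lay above all 6 Ammon's horn libraries in both bins, with unadjusted p of 0.0311 and 0.0197 in edgeR and neither called. In Tra2b, the gene of transformer-2 beta, the poison exon (bin 17) had 4.48, 4.04 and 3.82% in the wild-type libraries, 2.44, 2.99 and 3.1% in the knockout libraries and 4.83% in the dentate gyrus library. All 3 knockout libraries lay below the wild-type libraries there, on 13 to 26 reads a library, and the usage test gave log2 usage change -0.58 ± 0.33 SE, unadjusted p = 0.0819 in edgeR. In Hnrnpl the 70-base exon (bin 22) had 5.22, 7.84 and 6.93% in the wild-type libraries, 4.91, 8.48 and 7.49% in the knockout libraries and 11.1% in the dentate gyrus library. The Srsf9 exon (bin 4) was covered far more, at 76.9, 75.9 and 70.3% in the wild-type libraries, 56.1, 64.3 and 56.1% in the knockout libraries and 65.6% in the dentate gyrus library, and the knockout libraries lay below the wild-type ones (log2 usage change -0.18 ± 0.11 SE, unadjusted p = 0.14 in edgeR).

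In Srsf2, the gene of SC35, an exon of a decay transcript without its stop codon (bin 11, 104 bases at chr11:116851648-116851751) had 31.8, 40.8 and 33.6% in the wild-type libraries, 60.7, 36.9 and 53.2% in the knockout libraries and 67.6% in the dentate gyrus library. Wild-type replicate 2 lay above knockout replicate 2, and the dentate gyrus library lay above all others. Of the 19 bins in exons of decay transcripts 15 could be tested. None was called in the knockout or in the dentate gyrus by edgeR or by limma, while over all placed genes 4.59% of 218 bins found only in decay transcripts were called as used more in the dentate gyrus. Unadjusted p-values under 0.05 were found for 2 bins in the knockout and for 5 in the dentate gyrus, where 3.89% of all bins had one. In the dentate gyrus 13 of 15 had a positive change with a median of 0.38 on the log2 scale. These 15 include bins shared with other transcripts. Of the 5 found only in decay transcripts 4 were positive, with a median of 0.20, beside 66.7% of 213 such bins of other genes and a median of 0.19. In the knockout 10 of 15 were positive, with a median of 0.044. Of the 5 found only in decay transcripts 3 were positive, with a median of 0.042, beside 61.2% of 196 such bins of other genes and a median of 0.062. No such exon of Srsf7, Srsf11, Hnrnpd or Tra2a could be matched to a bin, so their coverage was not analysed here.

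**Figure D3:**
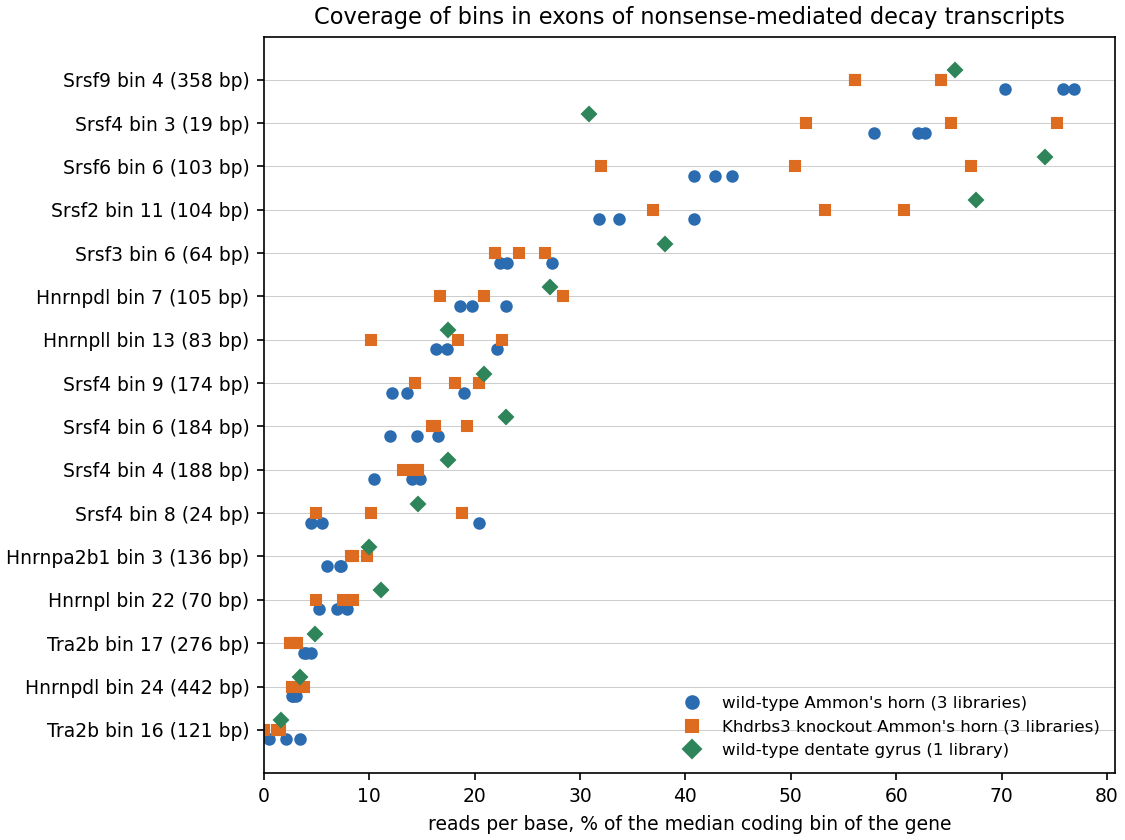
Reads per base in bins of exons used by nonsense-mediated decay transcripts, as a percentage of the median coding bin of the same gene. Each point is 1 library, and the 16 bins with a mean of at least 2% in wild-type Ammon's horn are shown in the order of that mean. The knockout points mix with the wild-type points in most bins, and the dentate gyrus point lies to the right of all others in Srsf6 bin 6, Srsf2 bin 11 and Srsf3 bin 6.

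The second comparison set the dentate gyrus, whose main neurons are granule cells, against wild-type Ammon's horn. Most members that passed the test were higher in the dentate gyrus: 15 of 33 passed the test in edgeR, where 22% of 24486 genes did, and 14 of the 15 were higher in the dentate gyrus, where 11.2% of all genes were higher and 10.9% lower. The median log2 fold change was 0.24 over the members and -0.013 over all genes. All changes were under 2-fold. In each of the 14 genes the dentate gyrus library lay above all 6 Ammon's horn libraries. This adds no separate evidence, since the calls rest on the same libraries, and the share over all genes was not counted. The dentate gyrus library also differed in the summed markers of oligodendrocytes, CA1 cells and granule cells and in Snap25 and Syt1, as given above. Their part in these changes was not tested.

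All 13 SR protein genes had a positive change, and 7 passed the test (median 0.37). Srsf11, whose protein associates with the spliceosome and regulates microexons in neurons, rose most: it stood at 45.5, 48 and 41.1 CPM in the wild-type libraries, 47, 45.8 and 51.5 CPM in the knockout libraries and 70.8 CPM in the dentate gyrus library (log2 fold change 0.66 ± 0.093 SE, edgeR adjusted p = 0.000734). Tra2a, the gene of transformer-2 alpha, rose as much, from 31.8, 38.2 and 30.7 CPM in wild-type Ammon's horn to 52.9 CPM, with 35.5, 34.3 and 38.6 CPM in the knockout (log2 fold change 0.66 ± 0.11 SE, edgeR adjusted p = 0.00236). Its paralogue Tra2b had 55.8, 49.8 and 49.7 CPM in the wild-type libraries, 53.7, 52.5 and 54.9 CPM in the knockout libraries and 59.4 CPM in the dentate gyrus library, and did not pass (log2 fold change 0.20 ± 0.081 SE, edgeR adjusted p = 0.105).

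Genes of the best-known SR proteins rose by smaller amounts. Srsf1, the gene of SF2/ASF, was at 86.9, 74.7 and 69.7 CPM in the wild-type libraries, 82.9, 82.2 and 83.9 CPM in the knockout libraries and 106 CPM in the dentate gyrus library (log2 fold change 0.46 ± 0.10 SE, edgeR adjusted p = 0.00773). Srsf6 was at 43.8, 43.4 and 35.8 CPM in the wild-type libraries, 41.6, 45.6 and 49.1 CPM in the knockout libraries and 56.6 CPM in the dentate gyrus library (log2 fold change 0.47 ± 0.12 SE, edgeR adjusted p = 0.0162). Within the Ammon's horn the wild-type replicate 3 was the lowest library for both genes. Srsf7 was at 55, 53.2 and 45.8 CPM in the wild-type libraries, 54.5, 55.9 and 53.3 CPM in the knockout libraries and 66.9 CPM in the dentate gyrus library (log2 fold change 0.38 ± 0.094 SE, edgeR adjusted p = 0.015), and Srsf2 at 59.5, 57.9 and 53.6 CPM in the wild-type libraries, 60.7, 54.4 and 59.9 CPM in the knockout libraries and 73.7 CPM in the dentate gyrus library (log2 fold change 0.37 ± 0.083 SE, edgeR adjusted p = 0.0095). For Srsf7, too, wild-type replicate 3 stood apart, below the other Ammon's horn libraries. Srsf9 was at 28.5, 31.4 and 25.3 CPM in the wild-type libraries, 27.5, 27.8 and 28 CPM in the knockout libraries and 39.4 CPM in the dentate gyrus library (log2 fold change 0.47 ± 0.11 SE, edgeR adjusted p = 0.0094).

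Srsf3 was at 119.7, 103 and 97.6 CPM in the wild-type libraries, 109, 107 and 104 CPM in the knockout libraries and 119 CPM in the dentate gyrus library and did not pass (log2 fold change 0.16 ± 0.10 SE, edgeR adjusted p = 0.306). Its dentate gyrus library lay within the range of the Ammon's horn. The others that did not pass were Srsf4, Srsf5, Srsf10, Srsf12 and Tra2b, with log2 fold changes between 0.075 and 0.30. Srsf10, a splicing repressor when dephosphorylated, was nearest to the threshold (edgeR adjusted p = 0.0597).

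Of the 20 hnRNP genes 7 rose and 1 fell (median 0.14). Hnrnph1, whose protein binds runs of guanine, was at 109, 108 and 98.6 CPM in the wild-type libraries, 104, 104 and 109.5 CPM in the knockout libraries and 141 CPM in the dentate gyrus library (log2 fold change 0.42 ± 0.075 SE, edgeR adjusted p = 0.00274). Hnrnpl, which binds CA repeats, was at 81.7, 101 and 86.8 CPM in the wild-type libraries, 90.1, 90.1 and 97.4 CPM in the knockout libraries and 118 CPM in the dentate gyrus library (log2 fold change 0.39 ± 0.10 SE, edgeR adjusted p = 0.0211). Of their close relatives, Hnrnph2 (log2 fold change -0.064), Hnrnph3 (-0.033) and Hnrnpll (0.042) stayed within the range of the Ammon's horn, and none of them passed. Hnrnpf did not pass either (log2 fold change 0.15 ± 0.069 SE, edgeR adjusted p = 0.144). Its dentate gyrus library, at 96.5 CPM, nevertheless lay above every Ammon's horn library.

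Hnrnpu was at 245, 238 and 225 CPM in the wild-type libraries, 236, 243 and 249 CPM in the knockout libraries and 301 CPM in the dentate gyrus library (log2 fold change 0.35 ± 0.075 SE, edgeR adjusted p = 0.00713). Hnrnpm was at 68.9, 67.4 and 63.7 CPM in the wild-type libraries, 64.3, 65.9 and 66.3 CPM in the knockout libraries and 83.1 CPM in the dentate gyrus library (log2 fold change 0.32 ± 0.067 SE, edgeR adjusted p = 0.00702), and Hnrnpul1 at 66.5, 61.4 and 63.3 CPM in the wild-type libraries, 66.8, 65.7 and 62.1 CPM in the knockout libraries and 79.2 CPM in the dentate gyrus library (log2 fold change 0.31 ± 0.072 SE, edgeR adjusted p = 0.0107). In these 3 genes the dentate gyrus library lay above all 6 Ammon's horn libraries, which differed little among themselves. Hnrnpd was at 96.2 CPM in the dentate gyrus (log2 fold change 0.30 ± 0.067 SE, edgeR adjusted p = 0.0097) and Hnrnpr, a relative of Syncrip, at 87.6 CPM (log2 fold change 0.28 ± 0.069 SE, edgeR adjusted p = 0.0155).

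Hnrnpa1 was the member that fell. It stood at 209, 209.8 and 205 CPM in the wild-type libraries, 199, 190.4 and 204 CPM in the knockout libraries and 174 CPM in the dentate gyrus library (log2 fold change -0.26 ± 0.073 SE, edgeR adjusted p = 0.0267), and the dentate gyrus library lay below all 6 others. A pseudogene record of Hnrnpa1 is also in the gene table, and how reads matching both were counted is not given in the sources used here. The most abundant members, Hnrnpa2b1 and Hnrnpk, did not pass: the log2 fold change was 0.075 ± 0.077 SE for Hnrnpa2b1 and -0.0012 ± 0.071 SE for Hnrnpk. In a fit of the 4 wild-type libraries alone Hnrnpa1, Hnrnpr and Hnrnpl did not pass (edgeR adjusted p = 0.0704 and 0.0554 for the first 2, and just above the threshold for Hnrnpl).

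Each record of the gene table spans the gene from its start to its end, introns included, and whether reads in introns were counted is not given in the sources used here, so the same genes were compared by their exon bins. By sums over all exon bins 11 members were called, all higher, beside 14.8% of 16263 genes called higher; of the 15 above 10 kept their call. Over coding bins alone 26 members could be tested and 9 were called, all higher, beside 15.2% of 11334 genes; of the 9 called above that could be tested this way 8 kept their call. Hnrnpa3, whose coding bins changed by 0.31 ± 0.081 SE, was called in both. Srsf9 lost it in both: its coding bins changed by 0.11 ± 0.12 SE. For every exon-bin read of Srsf9 the gene table held 1.24 ± 0.074 counts (SD, n = 3) in the wild-type libraries and 1.72 in the dentate gyrus. By the sums over all bins Hnrnpa1 (edgeR adjusted p = 0.074), Hnrnpd (edgeR adjusted p = 0.0505), Tra2a (edgeR adjusted p = 0.0537) and Hnrnpm (edgeR adjusted p = 0.677) were not called. The bins of Hnrnpm are joined with those of its neighbour March2 in those sums. Over its own coding bins alone Hnrnpm rose by 0.27 ± 0.081 SE on the log2 scale and kept its call. Over its coding bins Tra2a rose by 0.42 ± 0.14 SE (edgeR adjusted p = 0.0428), and Srsf1, Srsf6 and Hnrnph1 by 0.54 ± 0.11 SE, 0.51 ± 0.12 SE and 0.34 ± 0.072 SE on the log2 scale.

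Most of the bins whose usage differed in the dentate gyrus belong to transcripts that do not code for protein. Of 600 member bins tested 12 were called in edgeR, 11 used more and 1 used less, where 0.186% of 169072 bins were called as used more and 0.0266% as used less. The largest signal was in Srsf11. Its bin 35 held 2.41, 4.13 and 4% of the gene's exon-bin reads in the wild-type libraries, 4.18, 3.79 and 5.81% in the knockout libraries and 7.5% in the dentate gyrus library (log2 usage change 1.09 ± 0.20 SE, edgeR adjusted p = 0.000436). The dentate gyrus library was highest and wild-type replicate 1 lowest, and the position of this bin could not be rebuilt. Hnrnpu bin 1 was also not placed and may belong to the gene record joined with Hnrnpu. Of the joined reads it held 0.293, 0.46 and 0.341% in the wild-type libraries, 0.505, 0.517 and 0.465% in the knockout libraries and 0.744% in the dentate gyrus library (log2 usage change 1.01 ± 0.22 SE, edgeR adjusted p = 0.0125).

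Hnrnph1 had 4 of the called bins, all in processed transcripts that do not code for protein. Bin 14 lies inside an intron of the coding transcripts (chr11:50379965-50380190, plus strand, mm10) and is printed here as an example. It kept its call without each Ammon's horn library in turn, with limma and with the 4 wild-type libraries alone. So did bin 15 and Srsf11 bin 35.
Hnrnph1 bin 14: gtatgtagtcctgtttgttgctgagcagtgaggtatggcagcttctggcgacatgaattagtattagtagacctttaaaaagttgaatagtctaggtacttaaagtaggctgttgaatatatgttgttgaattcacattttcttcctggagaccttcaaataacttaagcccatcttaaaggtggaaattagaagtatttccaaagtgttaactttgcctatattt
It held 0.296, 0.388 and 0.314% in the wild-type libraries, 0.436, 0.543 and 0.537% in the knockout libraries and 0.925% in the dentate gyrus library (log2 usage change 1.46 ± 0.30 SE, edgeR adjusted p = 0.00212). Bin 15, which follows directly, held 0.515, 0.478 and 0.543% in the wild-type libraries, 0.353, 0.654 and 0.806% in the knockout libraries and 1.26% in the dentate gyrus library (log2 usage change 1.31 ± 0.26 SE, edgeR adjusted p = 0.00128). Both bins stood clear of the Ammon's horn range in the dentate gyrus, and in bin 14 the knockout libraries also lay above the wild-type ones without being called. Bin 20 held 0.45, 0.677 and 0.47% in the wild-type libraries, 0.577, 0.598 and 0.691% in the knockout libraries and 1.22% in the dentate gyrus library (log2 usage change 1.18 ± 0.26 SE, edgeR adjusted p = 0.00701). Bin 37 held 0.0386, 0.0996 and 0.0844% in the wild-type libraries, 0.13, 0.111 and 0.141% in the knockout libraries and 0.352% in the dentate gyrus library (log2 usage change 2.19 ± 0.50 SE, edgeR adjusted p = 0.0132), from 40 reads in the dentate gyrus and between 3 and 11 elsewhere.

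Hnrnpl had 2 called bins, both found only in transcripts annotated as retained introns. They lie on either side of its 70-base poison exon. Bin 20 (1584 bases, chr7:28815353-28816936) held 2, 3.34 and 2.66% in the wild-type libraries, 2.78, 2.67 and 3.21% in the knockout libraries and 5.08% in the dentate gyrus library (log2 usage change 0.89 ± 0.17 SE, edgeR adjusted p = 0.000764). Bin 23 (627 bases) held 1.23, 1.81 and 1.06% in the wild-type libraries, 1.48, 1.28 and 1.85% in the knockout libraries and 2.61% in the dentate gyrus library (log2 usage change 0.89 ± 0.21 SE, edgeR adjusted p = 0.0234). In Srsf3 the called bin 5 is the 829 bases of intron directly before the poison exon (chr17:29038625-29039453), and it held 0.433, 1.23 and 0.973% in the wild-type libraries, 0.819, 1.1 and 1.28% in the knockout libraries and 2.05% in the dentate gyrus library (log2 usage change 1.22 ± 0.29 SE, edgeR adjusted p = 0.0315). In all 3 bins wild-type replicate 1 or 3 was the lowest library and wild-type replicate 2 lay above at least 1 knockout library.

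Of the called bins with a position, 2 belong to protein-coding transcripts of a member. Hnrnpdl bin 8, 1 of them, is also held by a processed transcript, and 4 of the 6 transcripts that span it skip it. Srsf1 bin 11 (196 bases, chr11:88049216-88049411) is coding in 1 transcript and lies in an intron of 4 others, and held 0.435, 0.803 and 0.916% in the wild-type libraries, 0.861, 0.973 and 1.26% in the knockout libraries and 1.68% in the dentate gyrus library (log2 usage change 1.24 ± 0.29 SE, edgeR adjusted p = 0.0285). Hnrnpdl bin 8 (220 bases of 3′ untranslated region) was given above for the Ammon's horn and reached 1.79% in the dentate gyrus (log2 usage change 1.24 ± 0.27 SE, edgeR adjusted p = 0.00897). The cassette next to it, bin 7, which the decay transcript shares with coding ones, held 1.28, 1.57 and 1.38% in the wild-type libraries, 1.9, 1.14 and 1.46% in the knockout libraries and 1.79% in the dentate gyrus library and was not called (edgeR adjusted p = 1). The bin used less, bin 42 of the unit that joins Hnrnpm and March2, lies in March2: it held 2, 2.08 and 2.01% in the wild-type libraries, 1.84, 1.96 and 2.53% in the knockout libraries and 1.14% in the dentate gyrus library of the unit's reads (log2 usage change -0.83 ± 0.20 SE, edgeR adjusted p = 0.023).

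These calls depend in part on wild-type replicate 1. Without it 5 of the 12 bins were called, Srsf11 bin 35 (edgeR adjusted p = 0.0211) and Hnrnph1 bins 14, 15, 20 and 37 (edgeR adjusted p = 0.00326, 0.000862, 0.0199 and 0.0426). With only the 4 wild-type libraries 6 of the 12 were called. These were Srsf11 bin 35, Hnrnpl bin 20, Hnrnph1 bins 14 and 15, Hnrnpdl bin 8 and Hnrnpu bin 1. With limma all 12 were.

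**Figure D4:**
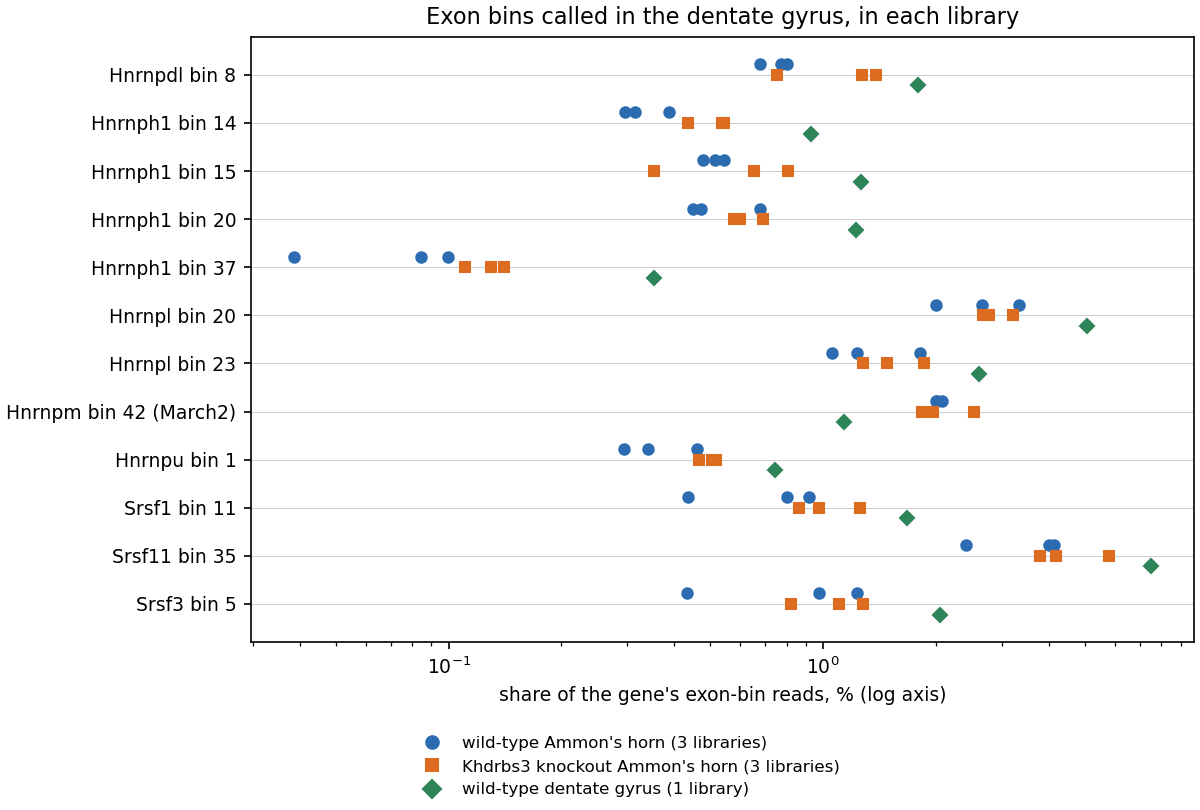
Share of the gene's exon-bin reads in each of the 12 bins called in the dentate gyrus, in percent on a log axis. For Hnrnpu and Hnrnpm the share is of the reads of the unit joined with another gene record. Each point is 1 library. The dentate gyrus point lies to the right of all Ammon's horn points in 11 bins and to their left in the March2 bin.

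The intron bins were then counted as a class. All 18 tested member bins found only in retained-intron transcripts had a positive usage change in the dentate gyrus, with a median of 0.91 on the log2 scale, and 3 were called. In the other genes whose bins could be placed 82.2% of 1259 such bins were positive, with a median of 0.61, and over all placed genes 6.34% of 1277 were called. Coding bins of the members had a median of -0.019 (282 bins, 1 called as used more, beside 0.0532% over all placed genes). The higher usage of intron bins was shared by other genes. As a share of exon-bin reads, these bins took 0.55, 0.869 and 0.667% in the members in the wild-type libraries, 0.801, 0.764 and 0.923% in the knockout libraries and 1.35% in the dentate gyrus library. In the other genes they took 0.214, 0.27 and 0.238%, 0.248, 0.255 and 0.278% and 0.341% in the same order. The dentate gyrus library also had the most reads outside all exon bins, 4.83% against 3.52% to 4.20%, and their part in these results was not tested.

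Gene by gene, 17 members have placed bins outside the exons of every protein-coding transcript, and in 13 of them the dentate gyrus library had a larger share of reads in these bins than any Ammon's horn library. Most other genes showed the same: with at least 100 reads in such bins over the 7 libraries, the dentate gyrus library was highest in 11 of 13 members and in 58.4% of 1378 other genes. In Srsf5 the share was 5.15, 6.09 and 3.87% in the wild-type libraries, 4.97, 4.64 and 6.11% in the knockout libraries and 9.22% in the dentate gyrus library. In Srsf3 it was 2.48, 4.83 and 3.4% in the wild-type libraries, 3.88, 3.71 and 4.52% in the knockout libraries and 7.26% in the dentate gyrus library, and in Hnrnph1 3.35, 4.15 and 3.46% in the wild-type libraries, 3.48, 4.29 and 5.08% in the knockout libraries and 7.1% in the dentate gyrus library. The dentate gyrus share was 1.83, 2.03 and 1.94 times the wild-type mean in these 3 genes. The largest shares were those of Srsf9 (28.6, 27.7 and 27.3% in the wild-type libraries, 25.7, 27.4 and 24.9% in the knockout libraries and 25.8% in the dentate gyrus library) and Srsf2 (17.1, 23.4 and 20.8% in the wild-type libraries, 26.1, 23 and 25.3% in the knockout libraries and 31% in the dentate gyrus library). Srsf9 was the gene in which the dentate gyrus share lay below the wild-type mean.

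**Figure D5:**
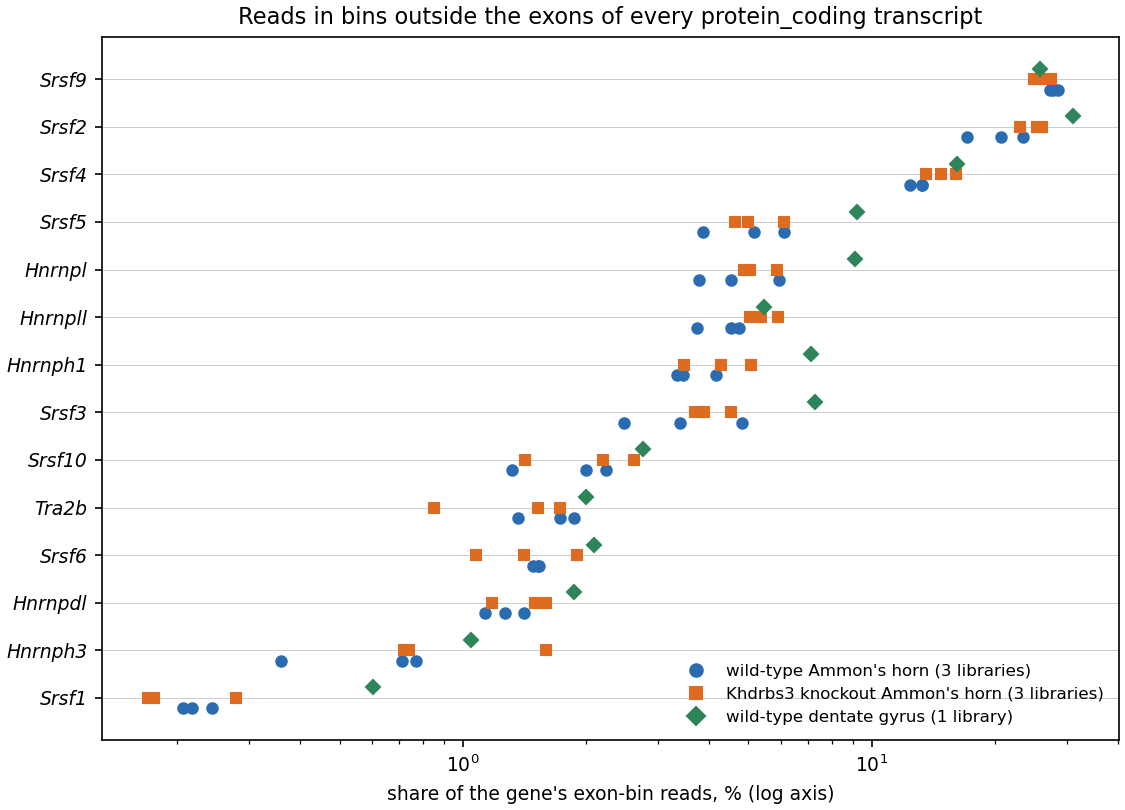
Percentage of each gene's exon-bin reads that fell in bins outside the exons of every protein-coding transcript, on a log axis, for the 14 genes with a mean of at least 0.1% in wild-type Ammon's horn. Each point is 1 library. The dentate gyrus point is the rightmost in Srsf2, Srsf5, Hnrnpl, Hnrnph1 and Srsf3, and the knockout and wild-type points overlap in most genes. Shares of Srsf4 are too high by an unknown amount, since the bins of its last exons held no reads.

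In the knockout, which is compared with the same 3 wild-type libraries, no bin of this kind was called. Of 16 tested retained-intron bins of members, in 7 genes, 15 had a positive usage change with a median of 0.23, against 64.4% positive and a median of 0.10 over 1087 bins of other genes. None had an unadjusted p under 0.05, and in 1 of the 16 the 3 knockout libraries all lay above the 3 wild-type libraries. Wild-type replicate 1 was the lowest of the 7 libraries in 10 of the 16 bins. Over the other placed genes it was the lowest as well, with 0.214% of exon-bin reads in such bins against 0.238 to 0.341% in the other libraries. How many single bins of other genes had either arrangement was not counted. In 2 of the 17 members with bins outside coding transcripts the share of reads in them was higher in each knockout library than in each wild-type library, and in 0 it was lower. With at least 100 reads in these bins this was so in 2 of 13 members and in 7.76% of 1378 other genes. The share was 3.74, 4.54 and 4.75% in the wild-type libraries, 5.92, 5.36 and 5.04% in the knockout libraries and 5.46% in the dentate gyrus library for Hnrnpll, and 13.3, 12.4 and 13.3% in the wild-type libraries, 13.6, 14.8 and 16% in the knockout libraries and 16.2% in the dentate gyrus library for Srsf4. The shares of Srsf4 are too high by an unknown amount, since the bins of its last exons held no reads in any library.

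Factors that work with the members were followed through 6 lists of 54 genes in all, each tested in both comparisons. These tests used gene-table counts, which may include intron reads, and the lists were not compared by exon bins. In the knockout none of the 54 was called in edgeR. In the dentate gyrus 19 rose and 1 fell, where 11.2% of all genes were called higher and 10.9% lower, and the list medians lay between 0.044 and 0.36 on the log2 scale. Of 9 kinases that phosphorylate SR proteins 4 rose. Clk1 was at 21.1, 27.3 and 18.5 CPM in the wild-type libraries, 28.5, 29.2 and 28.2 CPM in the knockout libraries and 38.4 CPM in the dentate gyrus library (log2 fold change 0.78 ± 0.16 SE, edgeR adjusted p = 0.00524), and Clk4 and Clk2, of the same family, changed by 0.60 ± 0.15 and 0.58 ± 0.16 SE. Clk1 is itself known for transcripts that keep introns.

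Among factors of nonsense-mediated decay Smg1 and Upf1 rose. Smg1, the kinase that phosphorylates UPF1, was at 60.5, 69.9 and 79.9 CPM in the wild-type libraries, 76.9, 94.7 and 87.6 CPM in the knockout libraries and 144 CPM in the dentate gyrus library (log2 fold change 1.04 ± 0.13 SE, edgeR adjusted p = 0.000409), and reached 2-fold, as 3.98% of all genes did. Upf1, the helicase of the pathway, changed by 0.46 ± 0.068 SE. Of 10 SR-related proteins 6 rose, led by Srrm2, a large spliceosome protein of nuclear speckles (log2 fold change 0.65 ± 0.10 SE, edgeR adjusted p = 0.00132), Luc7l3 (0.53 ± 0.088 SE) and Son (0.52 ± 0.077 SE). Of 8 exon junction complex genes 1 rose, Acin1 (log2 fold change 0.36 ± 0.088 SE, edgeR adjusted p = 0.0139). Of 8 factors of the first splice site recognition 3 rose, with Sf3b1, a subunit of the U2 snRNP, at 0.49 ± 0.081 SE. Of 9 hnRNP proteins with other symbols Khsrp and Tardbp rose, and Raly fell (log2 fold change -0.40 ± 0.088 SE, edgeR adjusted p = 0.00879).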

How the data were processed

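Polyadenylated RNA of mouse hippocampus was sequenced after TruSeq mRNA preparation, per the labels' protocols. The deposited files hold raw counts per gene and raw read counts per DEXSeq exon bin, and the authors' counting steps are not given in the sources used here. Per the submitters' processing notes, the genome was mm10 and the tools were bedtools 2.17.0, TopHat2 2.0.8b, DESeq2 1.0.19 and Trim Galore 0.3.5, with no role given. Each gene record spans the gene with its introns; whether intron reads were counted, or strand used, is not given in the sources used here. Reads in no bin made up 3.52% to 4.83% and were left out. Bin positions and transcript classes were rebuilt from GENCODE M21 (mm10), limited to older transcripts, for 26 of 33 genes (562 of 757 bins). A gene counted as rebuilt when its number of pieces equalled its number of deposited bins, and the positions of single bins were not checked. In 6 of the 26, Srsf3 and Hnrnpa2b1 among them, the gene ends were moved, by at most 1000 bases, to those of the deposited records. Hnrnpu, Srsf11, Hnrnpr, Hnrnpd, Hnrnpf, Hnrnpul1 and Hnrnpa1 could not be rebuilt.

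Gene counts were tested with edgeR 4.0.16 (R 4.3.3) by quasi-likelihood with TMM scaling and filterByExpr, and exon bins by diffSpliceDGE where 3 or more libraries held 10 or more reads. P-values were adjusted by Benjamini-Hochberg over everything tested and called under 0.05. The knockout fit used the 6 Ammon's horn libraries and the dentate gyrus fit all 7. DESeq2 1.42.0, limma 3.58.1, other scalings and filters, other sums and fits without each library were the alternatives. The fits were tested on simulated data. Values are given for the highest, called and known self-regulated members, for bins of decay transcripts and for bins with the smallest p. The members and lists were chosen with earlier results of these data known. One gene of the lists is not reported here.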

Additional observations from a re-analysis of the deposited data

How the results depend on the processing

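No paired analysis was possible because the labels carry no replicate numbers. For the knockout, the counts of members and of member bins called were 0 under all alternatives run for them, leaving out both knockout libraries rich in choroid plexus markers included. In the dentate gyrus the 14 genes called higher became 9 with sums of coding exon bins, where 26 of the 33 could be tested, and stayed between 11 and 16 under the other settings; without single libraries there were 14 to 18. The 1 gene called lower became 0 with sums of all exon bins, 0 with sums of coding bins and 0 with only the 4 wild-type libraries. The 11 bins used more became 7 with only the 4 wild-type libraries, and without single libraries they ranged from 5 (without wild-type replicate 1) to 13. The 1 bin used less became 3 with limma-voom and 0 with only the 4 wild-type libraries, and without single libraries it ranged from 0 (without wild-type replicate 1 or 2) to 1. Of the 10 genes highest per kb 6 stayed so with the gene table. The cause was not tested for these changes. No gene or bin named as called changed its direction under any alternative run. With all 8 coding bins as the reference in place of 2, the mean coverage of Srsf6 bin 6 in the wild-type libraries went from 42.7% to 30.1%. Bins with few reads, such as those of poison exons, limit what could be seen there, and the single dentate gyrus library limits every comparison with it.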
